A study of Homo sapiens with 16 samples.

Results

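LINC00881 is a long intergenic noncoding RNA, and its knockdown by a GapmeR in beating human cardiomyocytes is described here from 8 RNA-Seq libraries of a series of 16. The 4 tested libraries are LINC00881 knockdown replicates 1 to 4 and the 4 they are set against are control knockdown replicates 1 to 4, chosen by their labels alone. All 8 are cardiomyocytes made from human induced pluripotent stem cells (hiPSC-CMs) of the single line WTC-11, used at day 15 to 35 of culture in RPMI medium with B27 supplement and transfected with lipofectamine. The knockdown libraries received antisense LNA GapmeRs against LINC00881 and the control libraries a scrambled oligonucleotide. The remaining 8 libraries of the series carry a LINC00881 plasmid or a control plasmid. Nothing in the labels says which cultures the replicates came from, so p-values measure only the spread between these libraries, which may be technical. In such bulk RNA, fewer cells of a type and less RNA per cell cannot be told apart.

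A GapmeR is a short DNA oligonucleotide flanked by locked nucleic acids. It pairs with its target RNA in the nucleus or the cytoplasm, and RNase H then cuts the RNA strand of the hybrid. Antisense oligonucleotides are also known to act on RNAs other than their target and to provoke cellular stress responses, which is why a scrambled sequence serves as the control. Cardiomyocytes contract when calcium entering through the L-type channel releases more calcium from the sarcoplasmic reticulum, and the genes of this cycle and of the sarcomere make up much of their RNA.

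Each group splits into 2 sets, the first holding replicates 1 and 2 and the second replicates 3 and 4, whose library codes in the descriptions run in separate blocks and which the first principal component (33.5% of the variance) separated. What the sets stand for is not given in the sources used here. Knockdown libraries held 26979162 to 37332620 counts and control libraries 29279325 to 37033017. Each gene was therefore fitted with a term for the set, so that the value reported is the effect common to both sets, and the effect within each set is given beside it. Levels are CPM, the counts of a gene scaled to the library total and by TMM factors, and fold changes are GapmeR over scrambled oligonucleotide on the log2 scale. The 15 cardiomyocyte markers were all detected, and their summed level, in CPM without the TMM factors as for all library measures, was 18071, 19506, 24352 and 23696 CPM with the GapmeR, against 27486, 27480, 27083 and 25934 CPM with the scrambled oligonucleotide. The groups did not overlap (exact permutation test, 2-sided, p = 0.0286, the smallest that 4 against 4 libraries allow; adjusted p = 0.2 over 14 library measures). The sum of 8 pluripotent markers, of which 5 had enough counts to be tested singly, did not overlap either. It was 92.1 to 106 CPM with the GapmeR, against 80.4 to 91.6 CPM (p = 0.0286 and adjusted p = 0.2 by the same exact test). The other 12 measures of depth, mitochondrial RNA, gene span and other cell types had exact p-values of 0.143 or more.

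The LINC00881 gene occupies positions 157089881 to 157101135 of chromosome 3 (GRCh38, plus strand) and shares no exon with another annotated gene. The targeted RNA was low in every knockdown library. It stood at 11.3 and 26.7 CPM in knockdown replicates 1 and 2 and at 19.7 and 21.8 CPM in knockdown replicates 3 and 4, against 126 and 149 CPM in control replicates 1 and 2 and 54.9 and 54.8 CPM in control replicates 3 and 4. All 4 knockdown libraries lay below all 4 controls (exact permutation test over all splits, without regard to the set, 2-sided, p = 0.0286, the smallest that 4 against 4 libraries allow). The control level differed between the sets, while the knockdown levels of the sets lay in the same range. The common log2 fold change came to -2.13 (standard error 0.35; edgeR's quasi-likelihood F-test, adjusted p = 0.114), with -2.85 in replicates 1 and 2 and -1.40 in replicates 3 and 4, a difference that did not pass the test for an interaction (adjusted p = 0.108 from edgeR). The 300 bases around its RefSeq start, from position 157089631 to 157089930 of chromosome 3 on GRCh38.p14, are shown to place the locus whose RNA was targeted.
LINC00881: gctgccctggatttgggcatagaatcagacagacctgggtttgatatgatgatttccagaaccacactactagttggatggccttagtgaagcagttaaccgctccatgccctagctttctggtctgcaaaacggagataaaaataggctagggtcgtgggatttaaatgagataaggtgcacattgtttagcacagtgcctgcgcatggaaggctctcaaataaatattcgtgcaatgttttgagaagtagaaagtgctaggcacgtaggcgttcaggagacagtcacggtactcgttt
None of the motifs searched for below was found in this window. Of the 10 tested genes around LINC00881 on the chromosome 0 passed an unadjusted p of 0.05 in edgeR for the common effect, with log2 fold changes from -1.15 to 0.44. For 2 of the 10 the effect differed between the sets (interaction, adjusted p under 0.05 in edgeR), against 5.67% of all genes tested.

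**Figure D1:**
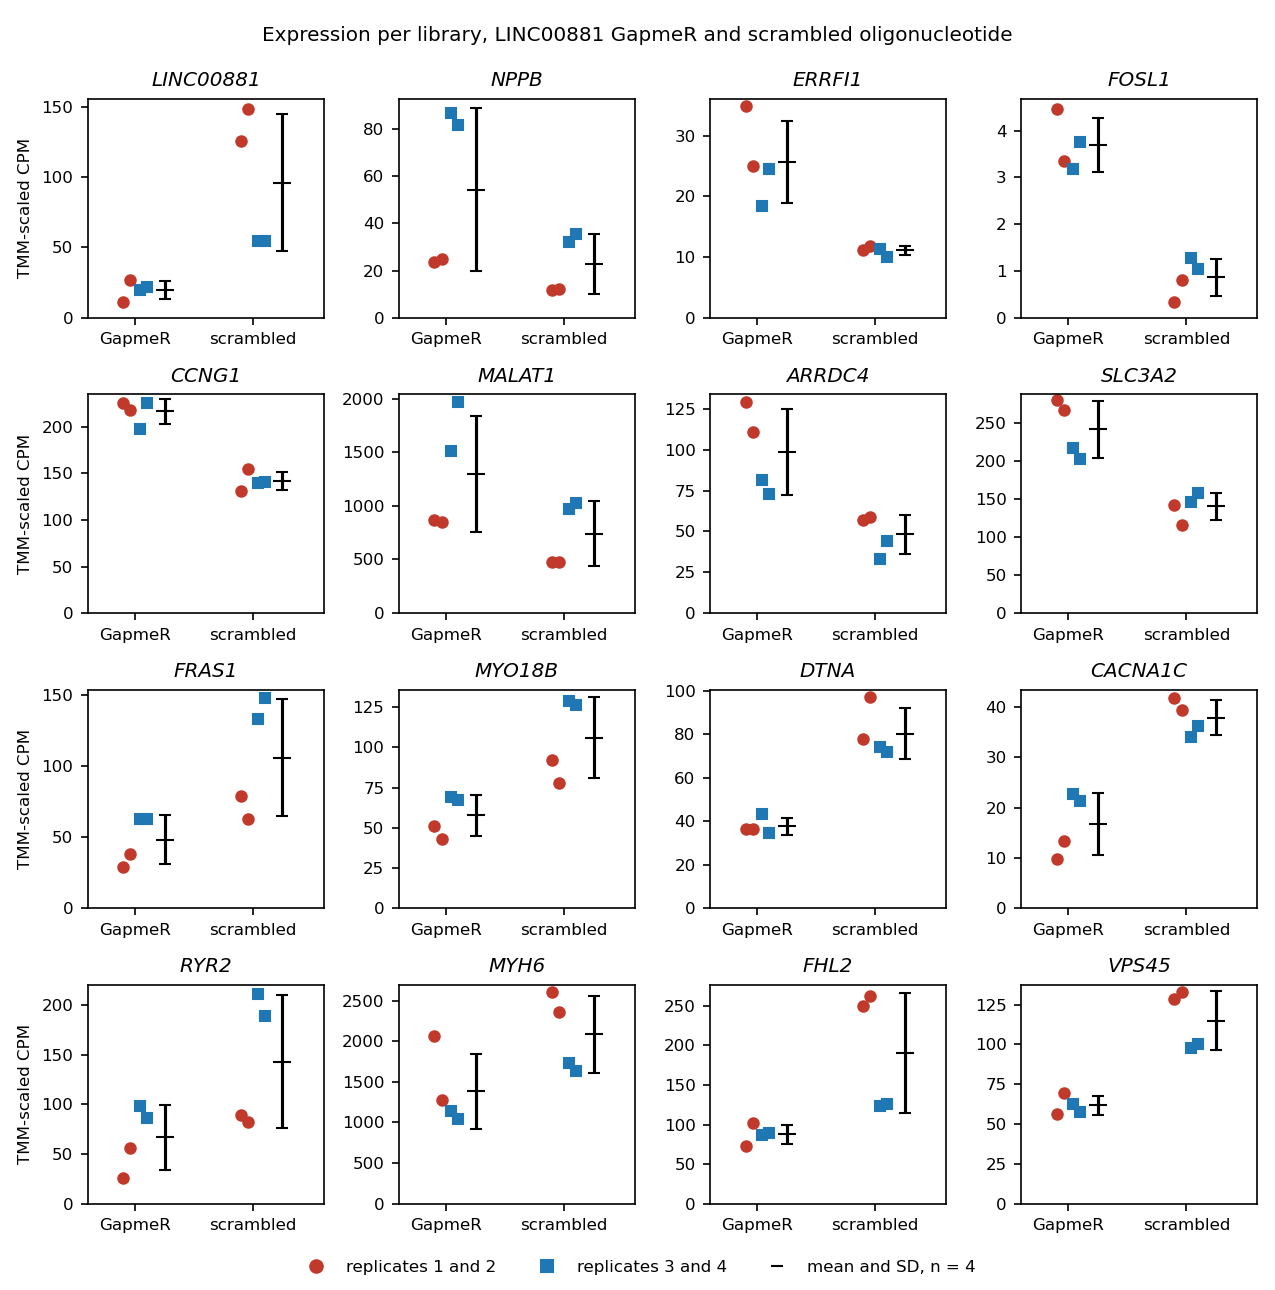
TMM-scaled CPM (vertical axes, from 0) of 16 genes in the 4 GapmeR libraries, left, and the 4 scrambled oligonucleotide libraries, right, with replicates 1 and 2 as circles, replicates 3 and 4 as squares, and the mean with its SD as bars (n = 4). LINC00881 stood at 11.3 to 26.7 CPM with the GapmeR, against 54.8 to 149 CPM, and the distance between the groups within each set is visible where, as for NPPB and RYR2, the sets themselves differ in level.

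Across 18127 genes tested, 0 (0%) passed a Benjamini-Hochberg adjusted p of 0.05 in edgeR's test with the set term, and the smallest adjusted p was 0.0528. At an unadjusted p under 0.05, the cutoff by which genes are called higher or lower below, 1196 genes were higher (6.6%) and 1308 lower (7.22%) with the GapmeR, against 906 in all were p-values uniform. Of these, 879 higher (4.85%) and 974 lower (5.37%) also had groups that did not overlap within either set, and 125 of the 2504 (4.99%) also differed between the sets by the interaction test after adjustment. On the same genes, DESeq2 with the set term called 947 after adjustment and limma-voom with sample weights 632. When the interaction of set and knockdown was fitted and the mean of the 2 effects tested, edgeR called 301 genes higher (1.66%) and 421 lower (2.32%) after adjustment. The interaction itself passed for 1027 genes (5.67%), a count that leaving out any 1 library moved, to between 70 without control replicate 3 and 3764 without knockdown replicate 2. The biological coefficient of variation was 0.366 with the set term and 0.275 with the interaction. Protein-coding genes made up 92.9% of those higher and 89.4% of those lower, and 75.4% of those tested.

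The 12 genes higher with the smallest p include 11 reported here, with log2 fold changes of 0.54 to 1.19. NPPB, the gene for B-type natriuretic peptide, a hormone that ventricular muscle releases under load, was 23.7, 24.9, 86.6 and 81.7 CPM in knockdown replicates 1 to 4, against 11.5, 12.0, 32.2 and 35.5 CPM in control replicates 1 to 4. In each set both knockdown libraries were above both controls, while the pooled groups overlapped because the sets differ in level. Its log2 fold change came to 1.18 (standard error 0.12, edgeR adjusted p = 0.0528), and 1.05 and 1.31 within the sets. NPPB spans chromosome 1 from 11857464 to 11858931 on the minus strand. ARRDC4, an arrestin-domain protein that limits glucose uptake, was 129, 111, 81.3 and 73.2 CPM with the GapmeR, against 57.1, 58.7, 33.1 and 44.4 CPM, with no overlap between the groups (1.02, and 1.05 and 0.99 within the sets). The p53 target CCNG1, which encodes cyclin G1, was 226, 218, 197 and 226 CPM, against 131, 155, 140 and 141 CPM with the scrambled oligonucleotide.

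BCLAF1, a nuclear protein tied to transcription and apoptosis, was 199, 191, 221 and 232 CPM with the GapmeR, against 109, 114, 142 and 144 CPM. MALAT1, an abundant noncoding RNA of nuclear speckles, was 872, 848, 1507 and 1965 CPM with the GapmeR, against 480, 475, 971 and 1029 CPM. Within each set both knockdown libraries were above both controls for each of these genes. ERRFI1, an inhibitor of the EGF receptor, was 34.9, 25.01, 18.3 and 24.6 CPM with the GapmeR, against 11.2, 11.8, 11.4 and 10.1 CPM, with no overlap between the groups (1.19, standard error 0.19, and 1.38 and 1.00 within the sets). The other log2 fold changes were 0.90 for RND3, a GTPase that opposes RhoA and stress fibers, 1.01 for CENPV, 0.78 for UBE2S, a ubiquitin-conjugating enzyme of the anaphase-promoting complex, 0.71 for FAM53C and 0.54 for MLLT11. The counts were made without regard to strand, and 41.6% of the tested genes share exonic bases with another gene, so their values are uncertain. Here these are MALAT1, CENPV, FAM53C, MLLT11 and ERRFI1. Of the genes named further on, the same holds for CCN2, PHLDA1, TNFRSF10B, CDKN1A, MCL1, HSPD1, MTHFD2, SLC1A5, FHOD3, CAPZB, TNNI1, SYNPO2L, CACNB2, KCNIP2, KCNQ1, FHL2, TAGLN, TDGF1, TNFRSF12A, COX6A2, NDUFV2, ACAD10, ACADVL, PDK1, SMARCA4, SLIT3, SEMA5A, SLC25A34, MIR22HG, CCNA2, CDK4, CCND1, MCM2 and MYH7.

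The 12 genes lower with the smallest p had log2 fold changes of -1.23 to -0.54. FRAS1, an extracellular matrix protein of basement membranes, was 28.9, 38.03, 62.7 and 62.5 CPM with the GapmeR, against 78.9, 62.9, 133 and 148 CPM. Its log2 fold change came to -1.12 (standard error 0.13, edgeR adjusted p = 0.0528), and -1.08 and -1.17 within the sets. Its partner FREM2, which belongs to the same matrix complex, was 3.51, 2.83, 16.8 and 15.2 CPM with the GapmeR, against 8.80, 8.81, 28.7 and 30.4 CPM (-1.17, and -1.47 and -0.88 within the sets). In each set both knockdown libraries were below both controls for both genes. DTNA, the gene of alpha-dystrobrevin in the dystrophin complex, was 36.6, 36.3, 43.5 and 34.7 CPM, against 77.7, 97.3, 74.1 and 71.7 CPM with the scrambled oligonucleotide. Its groups did not overlap over the 8 libraries.

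MYO18B, an unconventional myosin needed for sarcomere assembly, was 51.4, 43.0, 68.9 and 67.5 CPM with the GapmeR, against 91.9, 77.6, 129 and 126 CPM (-0.87, and -0.85 and -0.90 within the sets). VPS45, a protein of vesicle fusion, was 56.4, 69.7, 62.7 and 57.9 CPM, against 129, 133, 97.7 and 100.01 CPM. No knockdown library of either gene reached the lowest control. The other members were TAFA4 (-1.05), SV2C (-1.23), the potassium-chloride cotransporter gene SLC12A7 (-0.81) and MAPKAP1, a subunit of the kinase complex mTORC2 (-0.74). The actin-binding protein gene ABLIM1 (-0.54), PLEKHA7 (-0.66) and ATF6 (-0.83), a stress sensor of the endoplasmic reticulum, completed the 12. The exons of DTNA, MYO18B, VPS45, SV2C, FREM2 and PLEKHA7 overlap another gene, which leaves their values uncertain. All 24 genes passed an adjusted p of 0.05 when the mean of the effects was tested with the interaction fitted, against 1.66% of tested genes higher and 2.32% lower. For the interaction itself 0 of 24 passed, against 5.67% of tested genes. Both counts follow largely from the choice of these genes by small p and non-overlap in the same direction in both sets, so they are not independent evidence. The pooled groups of 8 libraries did not overlap for 8 of the 12 higher and 9 of the 12 lower, against 3.08% of tested genes higher and 3.37% lower that way, but the rule chose these genes on this contrast.

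**Figure D2:**
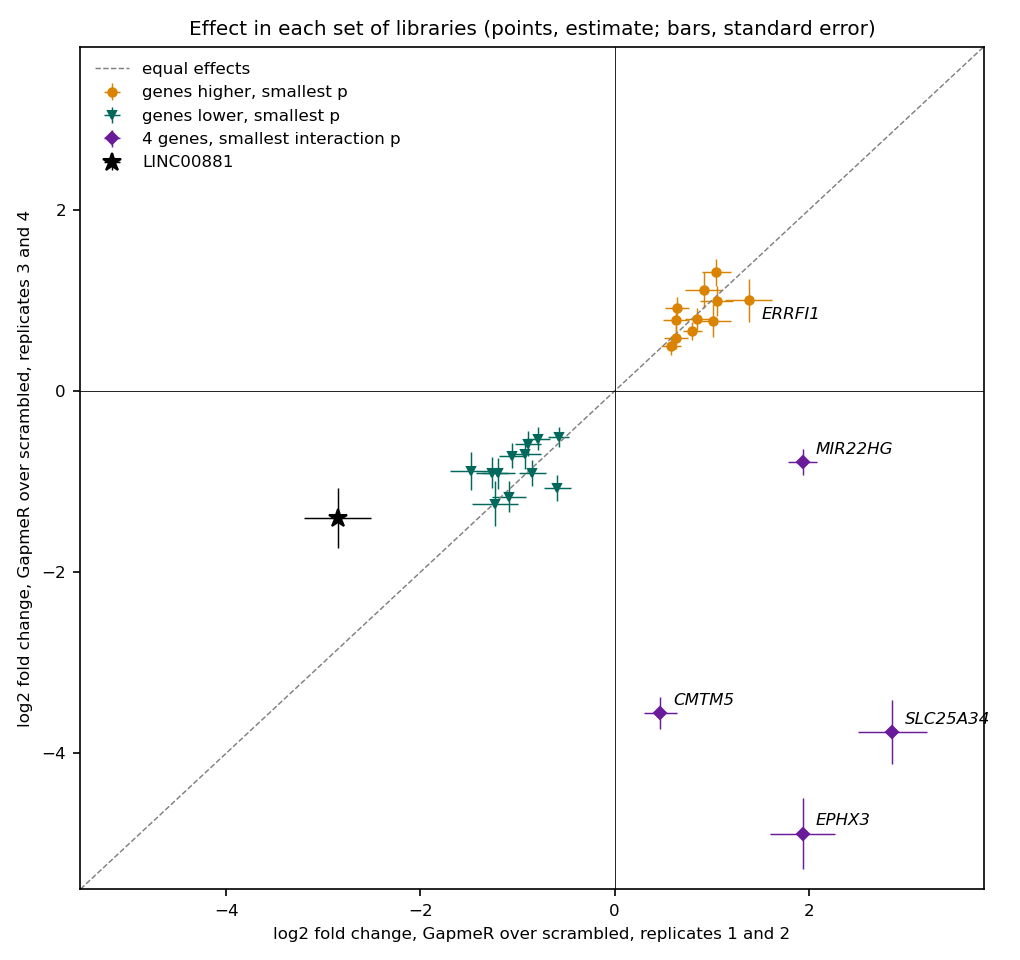
Log2 fold change (GapmeR over scrambled oligonucleotide) in replicates 1 and 2, horizontal, and in replicates 3 and 4, vertical, for the 11 reported genes higher and the 12 lower with the smallest p, the 4 genes with the smallest interaction p, and LINC00881. Bars are standard errors and the dashed line marks equal effects. The leading genes, chosen for a common effect, lie near the line, from ERRFI1 at 1.38 and 1.00 to FREM2 at -1.47 and -0.88, LINC00881 lies off it at -2.85 and -1.40, and CMTM5, EPHX3, SLC25A34 and MIR22HG lie far from it with effects of opposite sign.

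Transcription factors of the early response made up the list with the highest share of genes higher. These are factors of the AP-1, EGR, NR4A and KLF families and their companions, whose genes switch on within minutes to hours of growth factors, stretch or stress. Of 28 tested, 16 were higher and 0 lower at the unadjusted cutoff, with a median log2 fold change of 0.79 against -0.01 over all genes. Over all genes tested 6.6% were higher and 7.22% lower, and each list count below is to be read beside these shares. FOSL1, an AP-1 subunit, was 4.47, 3.35, 3.18 and 3.77 CPM with the GapmeR, against 0.337, 0.801, 1.27 and 1.04 CPM (log2 fold change 2.17, standard error 0.42). JUND, its dimer partner, was 13.3, 10.6, 6.04 and 9.66 CPM, against 5.25, 3.83, 4.16 and 4.47 CPM with the scrambled oligonucleotide (1.13). MAFF, a small Maf protein, was 4.81, 3.6, 3.33 and 2.83 CPM, against 1.87, 1.57, 1.42 and 1.14 CPM (1.27). All 4 knockdown libraries were above all 4 controls for each of these factors, all of which had low levels. CCN2, a matricellular protein, had higher levels, at 102, 89.6, 133 and 126 CPM, against 66.7, 59.9, 95.7 and 96.0 CPM. The median of the list was 1.33 in replicates 1 and 2 and 0.52 in replicates 3 and 4.

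Genes that ERK signaling induces and that damp it in turn went the same way in part, with 7 higher and 1 lower of 22 tested. ERRFI1 led them. The phosphatase gene DUSP1 was 64.6, 48.1, 60.8 and 52.3 CPM with the GapmeR, against 32.6, 30.8, 35.2 and 37.3 CPM (0.74), and SPRY1 had a log2 fold change of 0.55. PHLDA1, whose libraries were apart from their controls in replicates 1 and 2 alone, was 162, 164, 66.9 and 72.7 CPM, against 58.7, 49.0, 69.98 and 63.5 CPM with the scrambled oligonucleotide. Its effect differed between the sets (1.596 and 0.07, adjusted p = 0.00701 for the interaction from edgeR).

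Among the targets of p53, the factor that arrests the cell cycle after DNA damage and other stress, 12 were higher and 0 lower of 27 tested, with a median of 0.49. After CCNG1 came TNFRSF10B, a death receptor, at 60.3, 72.8, 53.2 and 49.4 CPM with the GapmeR, against 37.5, 26.1, 36.7 and 38.4 CPM (0.76, standard error 0.18). CDKN1A, which encodes the inhibitor p21, was 129, 134, 92.3 and 97.3 CPM, against 51.3, 39.98, 74.6 and 72.1 CPM with the scrambled oligonucleotide. It was higher in both sets, and by more in replicates 1 and 2 (1.53 and 0.37, adjusted p = 0.0184 for the interaction from edgeR). The kinase gene PLK2 had a log2 fold change of 0.42. Of 28 regulators of apoptosis 3 were higher, among them PMAIP1, the p53-inducible BH3-only protein NOXA, at 17.6, 19.5, 15.2 and 15.1 CPM, against 4.14, 5.01, 8.67 and 8.90 CPM (1.40, standard error 0.27). The others were BCLAF1 and MCL1, which protects from apoptosis (0.45), and HRK, another BH3-only gene, was lower (-0.96, a call that 7 of the alternative settings removed). With 3 higher and 1 lower of 28, the apoptosis list lay near the shares over all genes tested, 6.6% and 7.22%.

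Cytosolic chaperones of the heat shock response were higher for 8 and lower for 1 of 21 tested, with small effects. HSP90AB1, the constitutive form of HSP90, was 1975, 1699, 1483 and 1453 CPM with the GapmeR, against 1408, 1285, 1175 and 1082 CPM, and no control library reached a knockdown library (0.41, standard error 0.08, and 0.45 and 0.38 within the sets). DNAJA1 (0.39), HSPB8 (0.35) and the mitochondrial chaperonin gene HSPD1 (0.23) likewise did not overlap. Of 26 genes of the unfolded protein response and the endoplasmic reticulum, 5 were higher, led by SERP1 (0.62) and ARL6IP1 (0.83), and 3 lower, led by ATF6 and SSR3 (-0.41). Both SERP1 and ARL6IP1 share exonic bases with another gene. The interaction passed for 8 of these 26 genes, and their median differed in sign, at -0.16 for the first set and 0.24 for the second.

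ATF4 turns on amino acid transport and synthesis when the integrated stress response slows translation, and its targets were more divided, with 7 higher and 2 lower of 32. SLC3A2, which carries amino acid transporters to the cell surface, was 280, 268, 218 and 203 CPM with the GapmeR, against 142, 116, 146 and 158 CPM (0.78, standard error 0.14, and 1.09 and 0.47 within the sets). ATF3 was 36.0, 52.3, 14.4 and 16.3 CPM, against 16.0, 12.2, 12.2 and 13.2 CPM with the scrambled oligonucleotide, so most of its difference came from replicates 1 and 2. MTHFD2 (0.51) and SLC1A5 (0.48) followed. The list's median was 0.67 in replicates 1 and 2 and -0.25 in replicates 3 and 4, and the interaction passed for 9 of 32 members.

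Promoters of 4 genes higher with the GapmeR are shown because they hold a motif of a stress or glucose response, from 250 bases before to 50 after the RefSeq start on GRCh38.p14, with the motif in capitals. SLC3A2 (chromosome 11, 62881449 to 62881748, plus strand) and ATF3 (chromosome 1, 212565157 to 212565456, plus strand) hold TGATGNAA, the composite site of ATF4 with C/EBP, MAFF (chromosome 22, 38201744 to 38202043, plus strand) holds the cAMP response element TGACGTCA, and ARRDC4 (chromosome 15, 97960453 to 97960752, plus strand) the E-box CACGTG.
SLC3A2: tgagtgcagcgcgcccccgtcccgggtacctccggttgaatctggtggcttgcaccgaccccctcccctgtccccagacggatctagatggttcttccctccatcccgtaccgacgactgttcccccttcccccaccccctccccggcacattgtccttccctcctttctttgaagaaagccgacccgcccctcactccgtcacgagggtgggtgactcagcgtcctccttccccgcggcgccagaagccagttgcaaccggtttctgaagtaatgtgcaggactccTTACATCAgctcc
ATF3: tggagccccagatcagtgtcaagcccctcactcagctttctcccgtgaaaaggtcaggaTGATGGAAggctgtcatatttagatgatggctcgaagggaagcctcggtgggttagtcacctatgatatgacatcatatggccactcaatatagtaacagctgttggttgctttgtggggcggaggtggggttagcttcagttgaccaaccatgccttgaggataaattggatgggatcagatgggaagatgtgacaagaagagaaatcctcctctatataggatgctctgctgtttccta
MAFF: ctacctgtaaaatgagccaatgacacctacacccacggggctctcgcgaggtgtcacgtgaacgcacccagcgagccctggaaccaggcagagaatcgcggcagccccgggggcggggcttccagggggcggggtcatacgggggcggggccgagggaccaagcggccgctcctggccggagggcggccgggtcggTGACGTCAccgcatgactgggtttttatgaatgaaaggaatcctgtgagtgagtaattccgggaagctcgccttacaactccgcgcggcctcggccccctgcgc
ARRDC4: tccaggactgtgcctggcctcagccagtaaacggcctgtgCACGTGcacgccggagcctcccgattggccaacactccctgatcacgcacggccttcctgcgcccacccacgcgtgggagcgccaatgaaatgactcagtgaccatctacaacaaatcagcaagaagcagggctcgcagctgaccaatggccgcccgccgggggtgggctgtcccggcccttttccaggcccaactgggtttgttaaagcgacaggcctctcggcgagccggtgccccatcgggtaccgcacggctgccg
Both strands were searched for each motif, and for the AP-1 site TGANTCA. TGATGNAA occurred in 7 of the 28 ATF4 list members with a promoter in the table (25%), against 1.73% of 11883 tested genes and 3.67% of all 27305 promoters. Of the 7 promoters with it, ATF3 and SLC3A2 belonged to genes higher with the GapmeR and that of CARS1 to a gene that was lower. TGACGTCA was held by 2 of 12 early response genes that were higher, JUND and MAFF, and by UBE2S, against 3.17% of tested genes and 1.98% of all promoters. CACGTG was held by ARRDC4, SLC12A7 and TAFA4 among the 20 of the 24 leading genes with a promoter in the table, against 9.87% of tested genes and 7.44% of all promoters. TGANTCA was in 5.37% of promoters of genes higher and apart in both sets and in 3.47% of those lower, against 4.57% of tested genes and 7.76% of all promoters. A match of letters does not show that a factor was bound there.

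**Figure D3:**
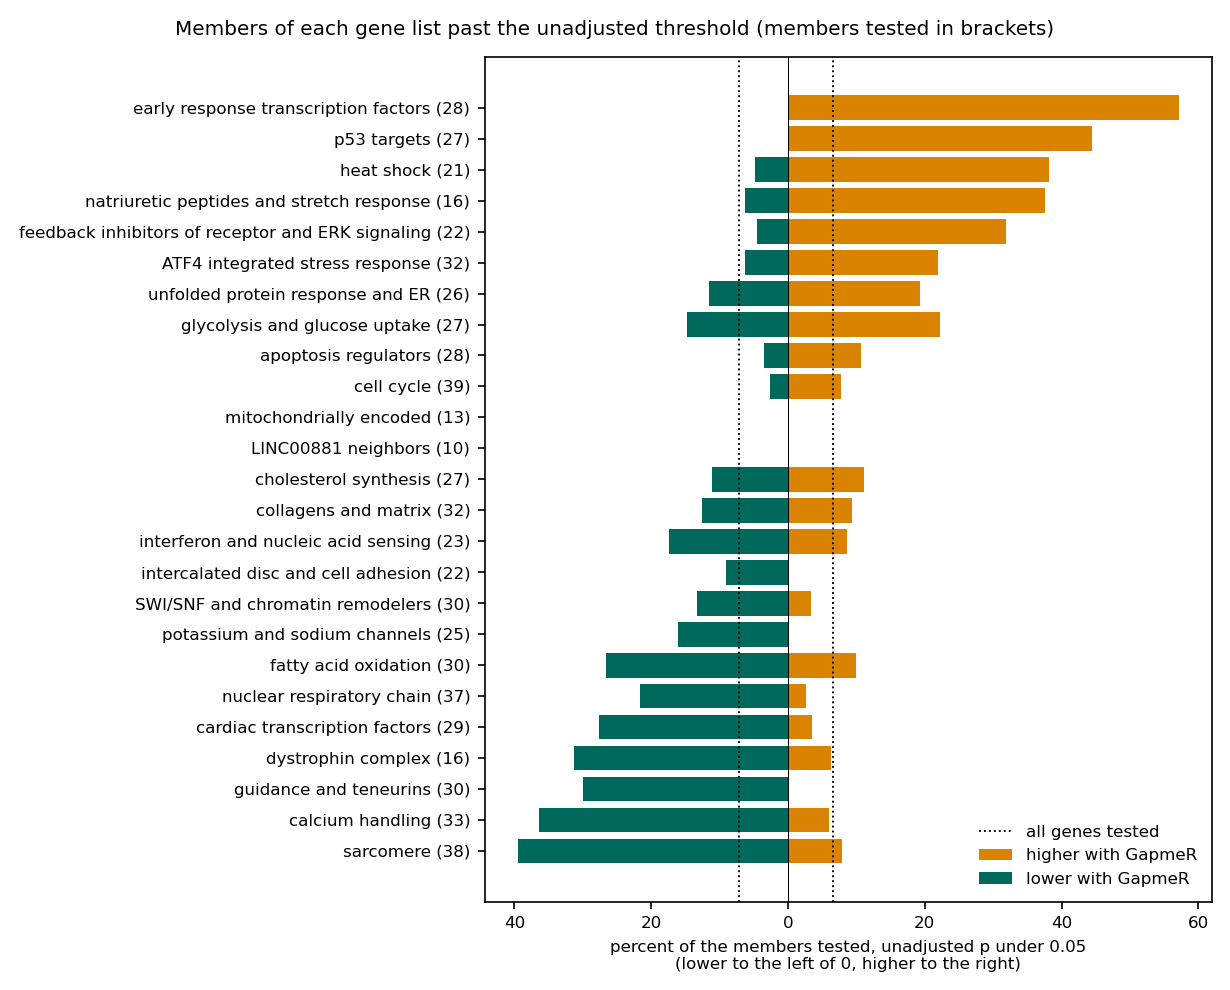
Percent of the tested members of each of 25 gene lists that were higher (right of 0) or lower (left of 0) with the GapmeR at an unadjusted p under 0.05, with the number of members tested in brackets. Dotted lines mark the same shares over all genes tested, 6.6% higher and 7.22% lower. Early response factors, p53 targets and heat shock genes stand at one end, and sarcomere, calcium handling and guidance genes at the other.

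The contractile apparatus went the other way. Of 38 sarcomere genes tested, 15 were lower and 3 higher, with a median log2 fold change of -0.35. The median was negative in each set but unequal, at -0.61 for the first set and -0.17 for the second. Of the 15 lower, 12 had groups that did not overlap within either set, near the share among all genes lower (974 of 1308). The interaction passed for 12 of the 38 members, against 5.67% of all genes tested. MYH6, the alpha myosin heavy chain, was 2064, 1278, 1142 and 1046 CPM with the GapmeR, against 2608, 2360, 1736 and 1629 CPM (-0.60, standard error 0.14, and -0.57 and -0.62 within the sets). It was lower in every knockdown library than in both controls of its set. LDB3, which anchors the Z-disc, was 324, 430, 459 and 456 CPM, against 687, 625, 555 and 533 CPM with the scrambled oligonucleotide (-0.52), and all 4 knockdown libraries were below all 4 controls. The formin gene FHOD3 (-0.97) and the capping protein gene CAPZB (-0.62) also did not overlap. TNNI1, the fetal troponin I of slow skeletal muscle, was 2032, 2053, 1849 and 1965 CPM, against 3144, 3219, 2154 and 2165 CPM (-0.41), and its effect was greater in replicates 1 and 2 (-0.64 and -0.18, adjusted p = 0.0481 for the interaction from edgeR). The 3 genes higher included SYNPO2L, an actin-binding Z-disc protein, at 438, 609, 399 and 403 CPM, against 364, 307, 314 and 306 CPM (0.51), and ANKRD1, a stretch-responsive titin partner, at 150, 365, 361 and 380 CPM, against 153, 170, 217 and 213 CPM (0.73, standard error 0.23). For ANKRD1, knockdown replicate 1 lay just below both of its controls and the other 3 knockdown libraries above all controls. MYH6, LDB3, SYNPO2L, ANKRD1, RYR2 and CACNA1C were named by the study from these libraries, so their direction here is not independent evidence. The same holds for FHOD3, TNNI1, ACAD10, BCLAF1, DNAJA1, MCL1, PHLDA1 and ATF3.

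Calcium handling genes were lower for 12 and higher for 2 of 33 tested, with a median of -0.39 over both sets, -0.70 in replicates 1 and 2 and -0.06 in replicates 3 and 4. Without control replicate 2 the number lower was 7. CACNA1C, the pore-forming subunit of L-type calcium channels, on chromosome 12 from 1970786 to 2697950, was 9.74, 13.4, 22.7 and 21.2 CPM with the GapmeR, against 41.8, 39.3, 34.0 and 36.2 CPM (-1.24, standard error 0.24, and -1.81 and -0.68 within the sets). Every knockdown library was below every control. RYR2, which releases calcium from the sarcoplasmic reticulum, on chromosome 1 from 237042205 to 237833988, was 25.6, 56.3, 98.7 and 85.8 CPM, against 89.1, 82.3, 211 and 189 CPM with the scrambled oligonucleotide (-1.09, and -1.07 and -1.12 within the sets). The channel subunit gene CACNB2 had a log2 fold change of -0.84. CACNA1C shares exonic bases with its antisense genes, and LDB3 and RYR2 with no gene. Of 25 potassium and sodium channel genes 4 were lower and 0 higher, led by KCNIP2 (-0.83), an accessory subunit of the transient outward channel, and KCNQ1 (-0.92), the pore of the slow delayed rectifier.

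Cardiac transcription factors were lower for 8 and higher for 1 of 29. FHL2, a LIM-domain cofactor, was 72.8, 101, 87.4 and 89.5 CPM with the GapmeR, against 249.6, 263, 123 and 126 CPM, with no overlap and an effect that differed between the sets (-1.56 and -0.49, adjusted p = 0.0317 for the interaction from edgeR). NKX2-5, the homeobox factor of early heart development, was 98.7, 91.3, 105 and 105 CPM, against 169, 142, 120.0 and 125 CPM with the scrambled oligonucleotide (-0.47), and IRX4, a ventricular factor, had a log2 fold change of -0.60. Of the 15 cardiomyocyte markers 6 were lower and 0 higher. Among 12 markers of hepatic or endodermal cells 7 were lower and 0 higher, with APOA2 at 3.75, 4.46, 10.2 and 11.7 CPM, against 7.82, 8.99, 20.9 and 21.4 CPM, and ALB at 0.937, 0.0615, 0.470 and 1.20 CPM, against 5.46, 2.98, 2.69 and 3.98 CPM. Of 11 fibroblast markers 1 was higher and 1 lower, of 8 smooth muscle markers 2 were higher (CALD1 at 0.55 and TAGLN at 0.38), and of 5 pluripotent markers 1 was higher (TDGF1 at 0.24). Of 3 endothelial markers tested 1 was higher (EGFL7 at 0.79), and of 4 epicardial markers 1 was higher (BNC1 at 1.93) and all 4 had a positive log2 fold change, with a median of 1.16. The epicardial markers lay near the floor, with a summed level of 2.48 to 5.89 CPM with the GapmeR, against 1.30 to 3.24 CPM. Fitted in each set alone, BNC1 had 0.68 in replicates 1 and 2 and 3.84 in replicates 3 and 4. Of 4 neural markers 0 passed the unadjusted cutoff in edgeR. The calls of TAGLN, TDGF1 and BNC1 were removed by 10, 11 and 10 of the alternative settings. The part of these cell types in the values of other genes was not tested.

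Genes raised by stretch or load were not lower as a group, with 6 higher and 1 lower of 16, among them NPPB, CCN2 and the TWEAK receptor gene TNFRSF12A (0.63), and FHL2 as the one lower. Energy metabolism was divided. Of 37 nuclear genes of the respiratory chain 8 were lower and 1 higher, with log2 fold changes from -0.63 for COX6A2, the muscle form of a cytochrome oxidase subunit, to 1.69 for NDUFV2, at 2.48, 1.94, 3.22 and 2.85 CPM with the GapmeR, against 0.767, 0.487, 1.06 and 0.978 CPM. Of the 13 respiratory chain genes of the mitochondrial genome 0 passed the unadjusted cutoff in edgeR. Fatty acid oxidation genes were lower for 8 and higher for 3 of 30, with ACAD10 (-0.86) and ETFA (-0.58) lower and ACADVL (0.38) higher. Of 27 genes of glycolysis and glucose uptake 6 were higher and 4 lower. TXNIP, which like ARRDC4 is an arrestin-domain inhibitor of glucose uptake, was 208, 297, 145 and 140 CPM, against 156, 159, 81.8 and 83.0 CPM (0.73), and PDK1 was lower (-0.44). Of 27 cholesterol genes 3 were higher and 3 lower, while 21 had a negative log2 fold change, with a median of -0.21 over both sets, -0.56 in replicates 1 and 2 and 0.15 in replicates 3 and 4, and 7 passed the interaction. The highest log2 fold change in the list was that of MYLIP, the ligase that degrades the LDL receptor, at 53.8, 42.5, 46.2 and 43.3 CPM, against 18.9, 16.9, 25.2 and 29.5 CPM (1.07). Of 23 genes that sense foreign nucleic acid or answer interferon, 2 were higher and 4 lower. Of 30 subunits of SWI/SNF and other remodelers 4 were lower and 1 higher, among them SMARCA4, also named by the study, at 64.6, 51.9, 87.3 and 75.9 CPM, against 85.9, 81.0, 106 and 97.0 CPM (-0.42, standard error 0.12). The counts for cholesterol genes and remodelers lay not far from the shares over all genes tested, 6.6% higher and 7.22% lower.

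**Figure D4:**
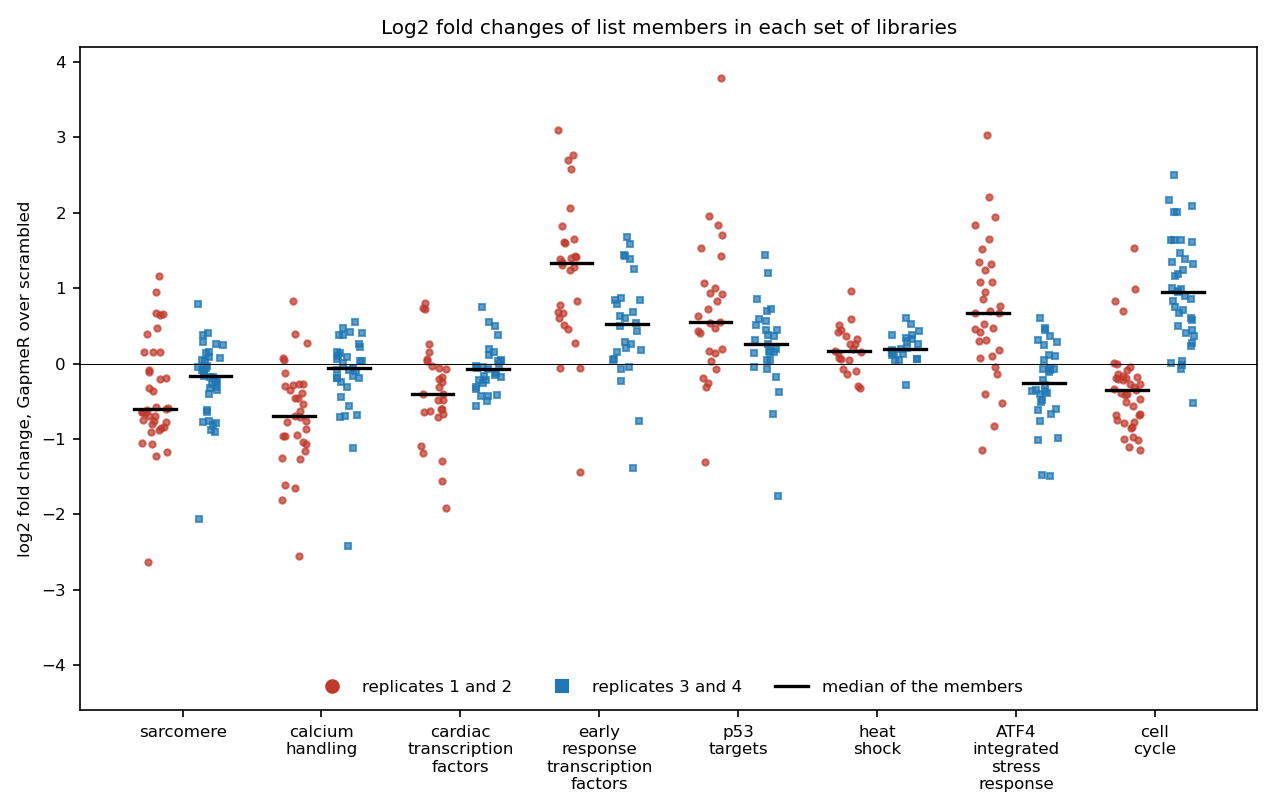
Log2 fold change (GapmeR over scrambled oligonucleotide, vertical axis) of each tested member of 8 gene lists in replicates 1 and 2 (circles) and in replicates 3 and 4 (squares), with the median of the members as a bar. Medians were 1.33 and 0.52 for early response factors and -0.61 and -0.17 for the sarcomere, and of opposite sign for the ATF4 list (0.67 and -0.25) and the cell cycle (-0.35 and 0.95).

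The span of a gene, from its first to its last annotated base, moved with the direction of its difference. Among 12364 protein-coding genes with a mean of at least 1 CPM, 14.5% of those under 10 kb were higher and 2.3% lower, while of 523 genes over 300 kb 0.574% were higher and 43.6% lower. The median log2 fold change was 0.13 under 10 kb, 0.09 from 10 to 30 kb, -0.04 from 30 to 100 kb, -0.24 from 100 to 300 kb and -0.59 over 300 kb. In both sets the median was lower in each class from 30 kb on than in the class before it, down to -0.90 over 300 kb in replicates 1 and 2 and -0.24 in replicates 3 and 4. Genes over 100 kb took 10.3%, 10.8%, 13.2% and 13.2% of protein-coding counts in knockdown replicates 1 to 4, against 12.9%, 12.9%, 14.6% and 14.7% in control replicates 1 to 4, lower in each set. Of the 12 leading genes that were higher, the longest was RND3 at 70817 bases, and of the 12 that were lower, the shortest was SLC12A7 at 61660 bases.

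Long genes are common in the muscle lists. In the sarcomere list 7 of 13 genes over 100 kb and 8 of 25 shorter ones were lower, and in the calcium list 7 of 16 and 5 of 17. Among all protein-coding genes with a mean of at least 1 CPM, 20.9% from 100 to 300 kb and 43.6% over 300 kb were lower. In the shorter classes 2.3% to 7.94% were lower. Of 30 guidance ligands, receptors and teneurins, which steer cell contacts, 9 were lower and 0 higher, 8 of them among 20 genes over 100 kb. They include SLIT3 (-1.06), SEMA5A (-1.04), TENM4 (-1.17) and PLXNA4 (-0.98). When an offset on span was fitted, 15 of the 28 early response factors were higher, 11 of 27 p53 targets were higher, 10 of 38 sarcomere genes lower, 5 of 33 calcium genes lower and 1 of 30 guidance genes lower, against 7.66% higher and 4.25% lower of the 16148 genes in that fit. MYH6, which spans 26288 bases, had a log2 fold change of -0.63 with the offset, LDB3 -0.42, NPPB 1.08 and FOSL1 2.05. CACNA1C, which spans 727165 bases, had -0.48 with the offset and RYR2, at 791784 bases, -0.29, where its unadjusted p was 0.363. FRAS1 had -0.50, MYO18B -0.42, DTNA -0.52, VPS45 -0.75 and ABLIM1 -0.12, where its unadjusted p was 0.281. The call also ended with the offset for FHOD3 (-0.35), CACNB2 (-0.27), KCNQ1 (-0.35), SMARCA4 (-0.20), SLIT3 (-0.34), TENM4 (-0.39), PLXNA4 (-0.32), PKP2 (-0.27), CCND1 (0.34), TAGLN (0.25), TDGF1 (0.13) and BNC1 (1.90). What lies behind the relation of span to direction was not tested.

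**Figure D5:**
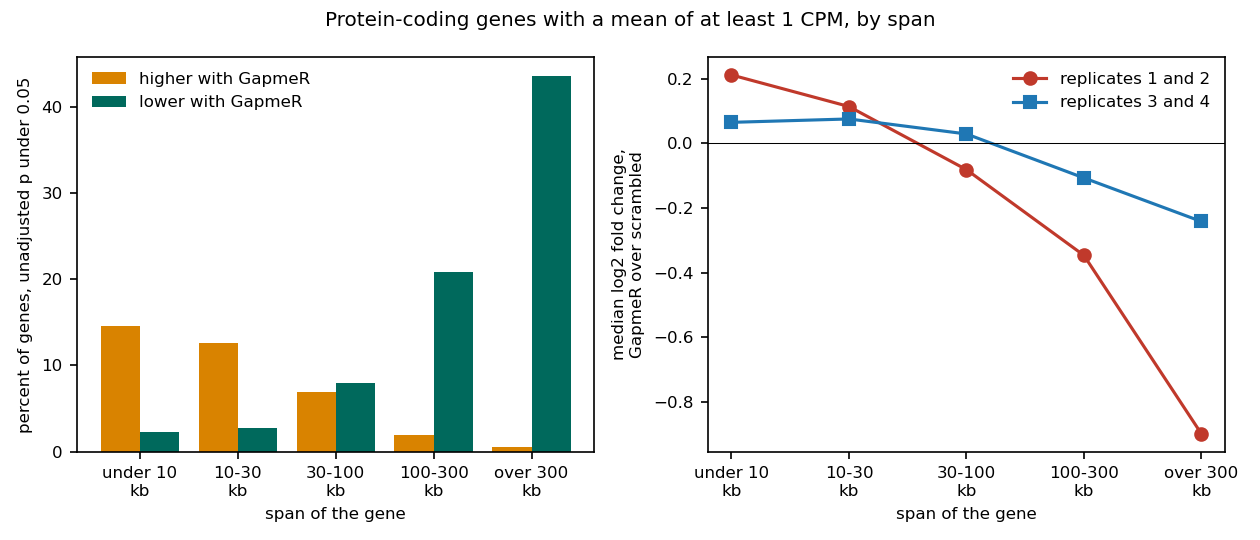
Protein-coding genes with a mean of at least 1 CPM in 5 classes of span (horizontal axis, kb). Left, percent of genes higher and lower with the GapmeR at an unadjusted p under 0.05, and right, median log2 fold change in each set of libraries. The share lower was 2.3% under 10 kb and 43.6% over 300 kb, and both medians were lowest over 300 kb, at -0.90 and -0.24.

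For many genes the GapmeR libraries differed from their controls in opposite directions in the sets. Both knockdown libraries lay on one side of both controls in each set for 2613 genes in the same direction (14.4%, of which 6.92% higher and 7.5% lower, as shares of the genes tested) and for 2818 in opposite directions (15.5%). The 4 genes with the smallest interaction p were CMTM5, EPHX3, SLC25A34 and MIR22HG. CMTM5, a membrane protein of the chemokine-like factor family, was 20.7 and 20.5 CPM in knockdown replicates 1 and 2 and 8.25 and 9.95 CPM in knockdown replicates 3 and 4, against 16.0 and 13.7 CPM and 109 and 106 CPM in the controls of those sets. MIR22HG, the host transcript of miR-22, was 190.1, 147, 56.3 and 54.9 CPM with the GapmeR, against 45.2, 43.0, 97.9 and 94.1 CPM. EPHX3, an epoxide hydrolase, was 6.26, 4.09, 0.362 and 0.471 CPM, against 1.41, 1.29, 12.7 and 12.4 CPM, and SLC25A34, a mitochondrial carrier, 3.17, 3.97, 0.760 and 0.733 CPM, against 0.460, 0.515, 10.9 and 9.49 CPM. In each of them the control libraries of the sets differed from each other as well. Their common effect did not pass the unadjusted cutoff.

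Genes of replication and mitosis formed the list with the most members of this kind, with 22 of 39 passing the interaction at an adjusted p of 0.05. The list's median was -0.35 in replicates 1 and 2 and 0.95 in replicates 3 and 4. CCNA2 and CDC20 are given as examples chosen after their values were seen. CCNA2, the cyclin of S phase and mitosis, was 20.9, 26.3, 56.1 and 58.5 CPM with the GapmeR, against 42.0, 42.7, 14.6 and 13.8 CPM. CDC20, the activator of the anaphase-promoting complex, was 52.2, 57.3, 120.1 and 106 CPM, against 71.3, 67.7, 39.7 and 32.7 CPM. Both were lower in the first set and higher in the second. In the common fit 3 members were higher, CDKN1A, CDK4 (0.53) and CCND1 (0.43, a call that 8 of the alternative settings removed), and 1 lower, the replication licensing factor gene MCM2 (-0.54). GDF15, a stress-induced cytokine, and SESN2, a stress-induced metabolic regulator, chosen in the same way, were 11.9, 25.4, 1.74 and 1.70 CPM and 88.8, 112, 29.1 and 26.4 CPM with the GapmeR, against 1.44, 1.26, 4.92 and 6.78 CPM and 27.8, 28.2, 39.8 and 48.7 CPM with the scrambled oligonucleotide. MYH7, the beta myosin heavy chain, chosen likewise, was 1331, 1528, 5301 and 4524 CPM, against 2841, 2347, 4182 and 3905 CPM (-0.86 and 0.28 within the sets). The junction protein gene PKP2 was lower in both sets, at 651, 605, 616 and 555 CPM, against 1132, 1072, 646 and 622 CPM, and by more in replicates 1 and 2 (-0.81 and -0.11, adjusted p = 0.0260 for the interaction from edgeR).

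In the libraries of the series with LINC00881 plasmid, set against their own control plasmid libraries, the 24 leading genes differed little. The 12 that were higher with the GapmeR had log2 fold changes of -0.25 to 0.02 there, with 2 past an unadjusted p of 0.05, and the 12 that were lower had -0.10 to 0.23, with 4 past it. The signs were opposite for 10 and 9 of them, against 54.8% of the 14184 genes tested in both comparisons. LINC00881 itself had a log2 fold change of 2.07 there.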

How the data were processed

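RNA was sequenced from hiPSC-CMs after TruSeq Stranded Total RNA library preparation. The values are the authors' deposited raw read counts per gene, made with featureCounts without regard to strand according to the sheet's name, from reads aligned with Gencode v38 per the study's methods. STAR 2.7.3a is named in the submitters' processing notes. The table held 16 libraries and 59385 gene symbols, of which 0 were blank. Genes past edgeR's filterByExpr were scaled by TMM and tested with edgeR 4.0.16 (quasi-likelihood, R 4.3.3), with terms for set and knockdown over the 8 libraries and Benjamini-Hochberg adjustment, and a second fit added their interaction. limma 3.58.1, DESeq2 1.42.0 and other filters, scalings and samples served as alternatives. Only the edgeR fit with the set term and the one with the interaction were tested on simulated data. Single values used an exact permutation test, on log2(CPM + 1) for LINC00881. Spans and exon overlap came from GENCODE 29 on GRCh38, matched by symbol to 89.1% of tested genes, and promoters from RefSeq on GRCh38.p14. Beside LINC00881 and genes named by the study, the text names, per direction, the 12 genes of smallest p whose mean CPM reached 1 and whose groups were apart in both sets, up to 4 members with the smallest p per list, the 4 genes with the smallest interaction p, and 5 chosen after their values were seen. The genes, 25 functional and 8 marker lists were chosen with earlier results of these data known. Replicate numbers did not pair libraries, with correlations of same-numbered deviations from group means of 0.08 to 0.17 and, once the set was removed, of -0.01 to 0.01. Some genes that these rules select are not reported here.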

Additional observations from a re-analysis of the deposited data

Results flagged for a closer look

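Of 97 genes named above, 17 had a GapmeR effect that differed between the sets by edgeR's interaction test after adjustment. The share over all genes tested was 5.67%. CMTM5, EPHX3, SLC25A34 and MIR22HG were named for their interaction p, and CCNA2, CDC20, GDF15, SESN2 and MYH7 after their values were seen. The count of 17 therefore follows in part from that choice. The difference is given here as the log2 fold change in replicates 3 and 4 minus that in replicates 1 and 2. It was -6.82 for EPHX3, -6.63 for SLC25A34, -5.55 for GDF15, -4.03 for CMTM5, -2.72 for MIR22HG, -2.52 for SESN2, -1.53 for PHLDA1 and -1.16 for CDKN1A. It was 2.85 for CCNA2, 1.98 for CDC20, 1.14 for MYH7, 1.06 for FHL2, 0.87 for KCNIP2, 0.87 for ARL6IP1, 0.84 for CCND1, 0.70 for PKP2 and 0.46 for TNNI1.

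One library stood far from the other 3 of its group in 7 of 222 groups examined, where chance gives about 1 in 20. These were control replicate 1 for SYNPO2L (364 CPM), ETFA (227 CPM) and BNC1 (1.93 CPM), control replicate 2 for TNFRSF10B (26.1 CPM), DNAJA1 (595 CPM) and SSR3 (769 CPM), and knockdown replicate 1 for ANKRD1 (150.1 CPM).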

How the results depend on the processing

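How many genes passed an adjusted p of 0.05 depended on the fit, and the cause was not tested. The count was 0 in edgeR with the set term, without it, with DESeq2's size factors, with an offset on span and in replicates 1 and 2 alone. It was 8 over protein-coding genes, 11 over genes with a mean of 100 counts, 632 in limma-voom, 722 for the mean of the effects, 786 over all genes with a count, 947 in DESeq2, 1914 with all 16 libraries and 2050 in replicates 3 and 4 alone, and 0 to 9 when 1 library was left out, 9 without knockdown replicate 1. Genes higher and lower at the unadjusted cutoff numbered 761 and 753 without the set term, 2424 and 2610 in replicates 3 and 4 alone and 2210 and 2276 with all 16 libraries. Those lower numbered 2002 for the mean of the effects, 2198 in limma-voom, 2109 over all genes with a count and 687 with the offset on span. Leaving out 1 library gave 786 (without control replicate 1) to 1464 higher and 902 to 1431 lower. With the replicate number as a block, 0 passed adjustment, and 871 were higher and 1019 lower. The interaction passed for 2331 genes in DESeq2 and for 70 to 3764 with 1 library left out.

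LINC00881 on log2(CPM + 1) differed by -2.35 to -1.87 with 1 library left out, and the summed cardiomyocyte markers by -6572 to -4478 CPM. The exact p was then 0.0571, the smallest that 4 against 3 libraries allow. Neither moved past its threshold with the other scaling, an alternative chosen after seeing the data (-2.13, and -5785 CPM).

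In replicates 1 and 2 alone the sign turned for CCNA2 (-0.84), CDC20 (-0.34), CMTM5 (0.48), EPHX3 (1.94) and SLC25A34 (2.87). In replicates 3 and 4 alone it turned for GDF15 (-1.74), MIR22HG (-0.76), MYH7 (0.30) and SESN2 (-0.65). In limma-voom it turned for GDF15 (-0.88), MIR22HG (-0.25), MYH7 (0.084) and SESN2 (-0.11), and with the offset on span for CTNNA1 (0.29) and FBN2 (0.26). With 1 library left out EPHX3 ranged over -3.10 to 0.34, SLC25A34 over -2.14 to 1.15 and GDF15 over -0.25 to 2.26, turning sign without knockdown replicate 3 or 4 for EPHX3 and SLC25A34 and without control replicate 1 or 2 for GDF15. Over all genes named, 2419 of the values under an alternative kept their direction and side of the cutoff, 199 missed the cutoff and 36 newly passed it.

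Without control replicate 1 or 2 the ATF4 targets higher numbered 4, and the ERK feedback genes higher 3 or 4. Without control replicate 1 or knockdown replicate 4, 5 heat shock genes were higher. Without control replicate 1, 5 cardiac transcription factors, 4 hepatic markers and 5 nuclear respiratory chain genes were lower, and the last numbered 3 to 8 over all libraries left out. Genes of interferon that were lower numbered 0 to 4. Low counts limit FOSL1, MAFF, NDUFV2, ALB and BNC1 most.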
